A study of Mus musculus with 6 samples.

Results

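The synaptic vesicle and release machinery was followed here through 37 genes of the presynaptic terminal in newborn mouse striatum. The genes were taken by symbol from a list of presynaptic genes, and all 37 had 1 row each among the 47062 genes of the deposited table. None was lost to the filter on low values described below, which left 16666 genes in the comparison. The mutant animals carried Drd2-Cre with floxed alleles of Sp9 (labelled Drd2-Cre;Sp9Flox/Flox, 3 libraries). The controls were littermates with the same floxed alleles and no Cre (labelled Sp9Flox/Flox, 3 libraries). All were taken at postnatal day 0, on a mixed C57BL/6J, 129S6 and CD1 background, from striatum dissected together with the subventricular zone. Cre expression was placed under regulatory sequence of Drd2, the dopamine D2 receptor gene, which marks the indirect pathway projection neurons, and Sp9 codes for a DNA-binding zinc finger protein of the Sp family. No library carried Drd2-Cre without the floxed alleles, so an effect of Cre and an effect of Sp9 loss cannot be told apart. The labels do not say whether a library is 1 animal, and p-values therefore measure only the spread between libraries.

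A nerve terminal stores transmitter in vesicles that are filled by transporters in the vesicle membrane. Vesicles are held in reserve by synapsins, brought to the active zone by Rab3 and its scaffold partners, and primed by Munc13 proteins. They fuse through the SNARE proteins when calcium binds synaptotagmin. After fusion, NSF takes the SNARE complexes apart and dynamin pinches membrane off for reuse. The striatum consists mostly of GABAergic neurons, whose vesicles are loaded by the transporter that Slc32a1 encodes. Messenger RNA of a striatal terminal protein is measured at the cell body, whereas the cortical, thalamic and midbrain axons in the tissue leave most of their own messenger RNA outside the dissection.

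The libraries held 16236947 to 19455934 fragments in genes, an estimate made from the smallest step of the deposited count columns. Levels are given as FPKM, in which fragments are scaled to transcript length and library depth. The targeted gene Sp9 had 8.37, 7.93 and 9.67 FPKM in mutant replicates 1 to 3, against 20.1, 19.0 and 17.3 FPKM in control replicates 1 to 3. Its log2 fold change was -1.08 ± 0.09 (SE), with an adjusted p of 0.0567 (limma). The tissue label fitted the markers, and none of 7 genes of direct pathway neurons was at 0. These 7 summed to 442 to 493 FPKM in mutants and 433 to 464 FPKM in controls. Tac1, with 215 to 277 FPKM over the 6 libraries, was the largest part, and the sum hides opposite moves. By limma, 3 of the 7 rose in mutants and 1 fell, each with an unadjusted p below 0.05. Of all genes, 2.65% were higher and 2.99% lower at that cut. Drd1 had 37.7, 42.7 and 37.6 FPKM in mutants, against 27.0, 18.8 and 25.3 FPKM in controls. Isl1 had 55.9, 53.3 and 54.9 FPKM in mutants, against 63.1, 61.6 and 68.4 FPKM in controls. The 8 genes of indirect pathway neurons summed to 108 to 138 FPKM in mutants and 237 to 271 FPKM in controls. All marker lists were written with earlier results of these data known, so shares within them are descriptions and not an independent check. Of the 8 indirect pathway genes, 6 were lower at an unadjusted p under 0.05 (limma), against 2.99% of all genes. Not all fell: Drd2 had 45.1, 45.9 and 42.1 FPKM in mutants, against 48.5, 42.0 and 44.5 FPKM in controls. Six3 had 33.6, 25.6 and 25.4 FPKM in mutants, against 30.7, 22.7 and 27.0 FPKM in controls. Xist and 4 Y-linked genes showed control replicate 3 to be from a male and the other libraries to be from females. Bulk tissue cannot tell fewer cells of a type from less RNA per cell, and this holds for every value below.

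None of the 37 genes passed an adjusted p of 0.05 over all genes tested (limma on log2(FPKM + 0.5), Benjamini-Hochberg). Of all 16666 genes, 10 did, or 0.06%. At an unadjusted p under 0.05 there were 2 presynaptic genes, both lower in mutants, or 5.41% of the 37, against 5.65% of all genes (2.65% higher and 2.99% lower). Groups did not overlap for 3 of the 37, 1 higher and 2 lower in mutants, or 8.11%, against 11.4% of all genes (5.32% higher and 6.04% lower). These shares lie near or under those of the table as a whole. On the deposited scaled counts, 23 of 16125 genes passed, or 0.143%, and none was among the 37.

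The differences were small as well as few. Estimates lay above 0 for 19 genes and below 0 for 18, and their median log2 fold change was 0.001, against -0.00016 over all genes tested. The middle 50% of the 37 estimates ran from -0.05 to 0.04, against -0.08 to 0.09 over all genes tested. Within 0.1 of 0 were 28 of the 37, and 9424 of all 16666 genes. The 95% interval of the difference lay inside a 1.5-fold change in either direction for 32 of the 37 genes, or 86.5%, against 71.2% of all genes. It lay inside a 2-fold change for 36 of the 37, the exception being Slc17a6, and for 14684 of all 16666 genes. Intervals are for 1 gene at a time. Of the 37 genes, 31 lay above the median level of the genes tested. Their median coefficient of variation among controls was 5.94%, against 9.55% for all genes.

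**Figure D1:**
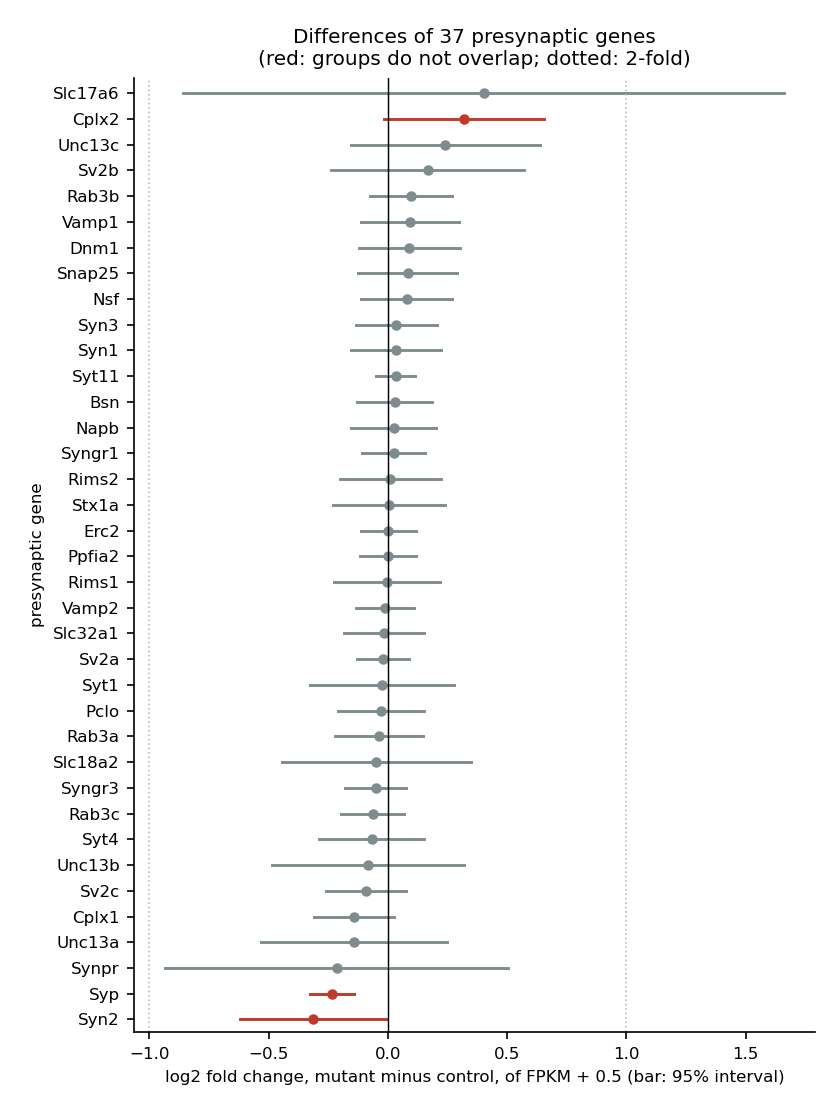
Log2 fold changes of the 37 genes, mutant minus control, on log2(FPKM + 0.5), with 95% intervals from limma as bars; red marks the 3 genes whose groups do not overlap. Syn2 and Syp lie at the low end, Cplx2 near the high end, and the interval of Slc17a6, from -0.86 to 1.66, is the widest.

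Of 7 genes of vesicle membrane proteins, 1 had groups that did not overlap, or 14.3%, against 11.4% of all genes. This gene, Syp, had the smallest p of the 37. Syp encodes synaptophysin, an abundant protein of the vesicle membrane that is widely used to mark synapses. It had 118, 115 and 118 FPKM in mutant replicates 1 to 3, against 136, 143 and 135 FPKM in control replicates 1 to 3. The mutant libraries lay close together and all below the lowest control. Means were 117 ± 1.75 FPKM in mutants and 138 ± 4.24 FPKM in controls (SD, n = 3 each), a log2 fold change of -0.23 ± 0.04 (SE; 95% interval -0.33 to -0.14; adjusted p = 0.364, limma). On scaled counts the log2 fold change was -0.13 (adjusted p = 0.697, limma), so its size depended on the unit by more than 1.5 times. The gene (ENSMUSG00000031144) lies on GRCm38 chromosome X, 7638471 to 7653256, plus strand, and its exons overlap those of Gm14703 on the other strand. Gm14703 had 50.2, 52.9 and 51.4 FPKM in mutants, against 54.5, 52.2 and 56.3 FPKM in controls. Whether fragments were assigned by strand is not given in the sources used here, so reads of the pair cannot be told apart. Without control replicate 3, the male library, the log2 fold change of the X-linked Syp was -0.25.

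Of the 7 vesicle membrane genes, 5 had estimates below 0, and the groups of all but Syp overlapped. Sv2a, a vesicle glycoprotein gene, averaged 71.4 ± 3.02 FPKM in mutants and 72.4 ± 1.45 FPKM in controls (SD, n = 3 each), with an interval of -0.13 to 0.09. The ratio of Syp to Sv2a within a library was 1.64, 1.56 and 1.73 in mutants, against 1.88, 1.93 and 1.90 in controls. These values do not overlap, but the pair was picked after the values were seen and was not tested. The synaptogyrin genes Syngr1 and Syngr3, relatives of synaptophysin, had log2 fold changes of 0.02 ± 0.05 and -0.05 ± 0.05 (SE). Sv2c, a form known for its presence in basal ganglia, averaged 10.4 ± 0.694 FPKM in mutants and 11.1 ± 0.348 FPKM in controls (SD, n = 3 each), and the groups overlapped.

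Synpr, which encodes synaptoporin, varied widely between libraries, with a coefficient of variation among controls of 32.0%. It had 106, 113 and 77.6 FPKM in mutants, against 136, 74.7 and 144 FPKM in controls. Low values thus stood in mutant replicate 3 and control replicate 2, and the groups overlapped. The 95% interval of its log2 fold change, -0.93 to 0.50, leaves room for nearly a 2-fold difference. This interval includes the estimate for Syp.

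Among the synapsins, which coat vesicles and hold them in the reserve pool, Syn2 was lower in mutant libraries and its relatives were not. Syn2 had 45.3, 33.0 and 43.4 FPKM in mutants, against 50.5, 48.4 and 51.2 FPKM in controls. All mutant values lay below all control values, and mutant replicate 2 stood well below the other mutants. The log2 fold change was -0.31 ± 0.12 (SE; 95% interval -0.62 to -0.01; adjusted p = 0.858, limma). Without mutant replicate 2 it was -0.17, and it ran to -0.40 without mutant replicate 1. The gene (ENSMUSG00000009394) lies on chromosome 6, 115134902 to 115282006, plus strand, and its exons overlap those of Timp4 on the other strand. Timp4 was low beside it, at 2.49, 2.34 and 2.06 FPKM in mutants and 2.62, 2.28 and 3.08 FPKM in controls.

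Syn1, on chromosome X, had 34.4, 36.98 and 30.4 FPKM in mutants, against 32.6, 32.6 and 33.7 FPKM in controls, and the controls lay inside the range of the mutants. Syn3 averaged 14.1 ± 0.372 FPKM in mutants and 13.8 ± 1.09 FPKM in controls (SD, n = 3 each). Their intervals, -0.15 to 0.22 for Syn1 and -0.13 to 0.20 for Syn3, do not reach the estimate for Syn2. The difference between the synapsins was not tested. Exons of Syn1 overlap those of Araf, and exons of Syn3 those of Timp3, in both cases on the other strand. Reads of these pairs cannot be told apart either. Exon overlap with another gene was found for 15 of the 37 genes.

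The complexins bind the assembled SNARE complex, where they restrain fusion until calcium enters and then promote it. Cplx2 had 65.6, 82.4 and 67.8 FPKM in mutants, against 48.5, 61.4 and 63.3 FPKM in controls. All mutant values lay above all control values, though mutant replicate 1 and control replicate 3 were close. The log2 fold change was 0.32 ± 0.13 (SE; 95% interval -0.02 to 0.65; adjusted p = 0.858, limma), and it was 0.20 without control replicate 1. Cplx1 had 38.8, 40.8 and 37.2 FPKM in mutants, against 39.8, 46.3 and 43.0 FPKM in controls, and these groups overlapped. Within a library, Cplx2 stood to Cplx1 as 1.69, 2.02 and 1.82 in mutants, against 1.22, 1.33 and 1.47 in controls. This ratio, formed after both genes had been looked at, was not tested. Cplx2 (ENSMUSG00000025867) lies on chromosome 13, 54371349 to 54383917, plus strand, and Cplx1 on chromosome 5, 108518554 to 108550024, minus strand.

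**Figure D2:**
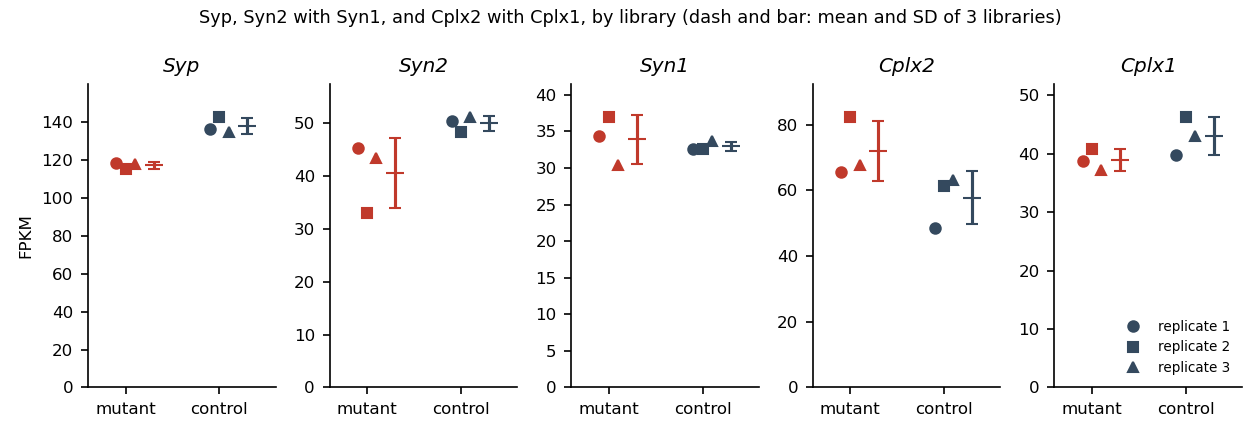
FPKM by library for Syp, Syn2, Syn1, Cplx2 and Cplx1, with mutant libraries in red and control libraries in dark blue, the marker shape giving the replicate, and a dash with a bar giving the mean and SD of 3 libraries. Syp, Syn2 and Cplx2 have groups that do not overlap, whereas those of Syn1 and Cplx1 do.

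The sequence upstream of these 3 genes is shown because Sp proteins bind the GC box, GGGCGG, in promoters. Syn1 is added as the paralog whose groups overlapped. Sequences are from RefSeq on GRCm38.p6, 5′ to 3′ along the gene's strand. They were taken within 250 bases before the RefSeq start, and bases that GENCODE places inside the gene were left out. The windows are chrX:7638330-7638470 (plus) for Syp, chr6:115134652-115134901 (plus) for Syn2, chr13:54302306-54302555 (plus) for Cplx2 and chrX:20921005-20921168 (minus) for Syn1. Capitals mark a GC box on either strand, or, in Syn1, the letters TTCAGCACC, the left part of the RE1 element through which the repressor REST keeps neuronal genes silent in other cells.
Syp: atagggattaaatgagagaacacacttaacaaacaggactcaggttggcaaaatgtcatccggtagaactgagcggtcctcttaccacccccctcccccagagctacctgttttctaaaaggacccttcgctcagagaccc
Syn2: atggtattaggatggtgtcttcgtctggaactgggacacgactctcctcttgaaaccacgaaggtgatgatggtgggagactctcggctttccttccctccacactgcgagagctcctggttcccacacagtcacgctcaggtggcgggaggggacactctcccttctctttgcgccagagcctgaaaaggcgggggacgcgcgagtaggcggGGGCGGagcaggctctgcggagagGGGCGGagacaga
Cplx2: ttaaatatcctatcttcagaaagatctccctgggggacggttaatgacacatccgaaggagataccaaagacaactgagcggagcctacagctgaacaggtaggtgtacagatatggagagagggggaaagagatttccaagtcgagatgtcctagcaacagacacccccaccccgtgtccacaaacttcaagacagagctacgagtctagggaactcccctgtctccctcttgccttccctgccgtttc
Syn1: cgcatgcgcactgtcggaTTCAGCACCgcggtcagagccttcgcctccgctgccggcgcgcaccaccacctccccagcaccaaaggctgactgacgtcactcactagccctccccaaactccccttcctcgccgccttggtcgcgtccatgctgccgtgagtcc
Syn2 held 2 GC boxes, the nearer starting 13 bases before the RefSeq start, and no GC box stood in the windows printed for Syp and Cplx2. A GC box of Syp lies among the bases left out, so Syp counts below as a gene with one. The RefSeq start of Cplx2 lies 68793 bases before the start in GENCODE, so the window belongs to a distal start.

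RefSeq promoters were found for 31 of the 37 genes, as 39 windows of 250 bases. Rims2, Syngr3, Syn3, Snap25, Syt4 and Vamp2 had none in the table used. A GC box on either strand stood in 22 of the 39 windows, or 56.4%. The share was 32.7% of all 32851 promoters and 56.7% of the promoters of the genes tested, so the share among these presynaptic promoters lay close to that among the genes measured here. The 22 genes with a GC box had a median log2 fold change of -0.03, and the 9 without had 0.04. This difference was not tested, and the 9 include Cplx2, whose printed window belongs to a distal start. TTCAGCACC stood in the promoter of Syn1 alone among the 31, and in 0.301% of all promoters.

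The SNARE genes spanned a wide range of levels. Vamp2, which encodes the vesicle SNARE synaptobrevin-2, had the highest level of the 37 genes, with 276, 285 and 257 FPKM in mutants, against 270.0, 276 and 278 FPKM in controls. The controls lay inside the range of the mutants, and the interval of the difference was -0.13 to 0.11. Vamp1, its relative, averaged 5.03 ± 0.413 FPKM in mutants and 4.67 ± 0.0871 FPKM in controls (SD, n = 3 each). Vamp2 exceeded Vamp1 by 50.3 to 60.3 times in each library of either group. Snap25 and Stx1a encode the partners on the plasma membrane. Snap25 averaged 126 ± 13.7 FPKM in mutants and 118 ± 3.37 FPKM in controls, and Stx1a 44.4 ± 3.56 and 44.3 ± 4.71 FPKM (SD, n = 3 each). Nsf, the ATPase that dismantles used SNARE complexes, and Napb, its beta-SNAP adaptor, had log2 fold changes of 0.08 ± 0.08 and 0.02 ± 0.07 (SE).

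Of the synaptotagmins, Syt4 and Syt11 stood above Syt1 in every library of this newborn tissue. Syt1 encodes the calcium sensor for fast release, while the first calcium-binding domain of the proteins from Syt4 and Syt11 lacks a residue needed for calcium binding. Syt4 had 129.5, 118 and 146 FPKM in mutants, against 130.4, 146 and 134 FPKM in controls, and the groups overlapped. Syt11 averaged 72.1 ± 0.567 FPKM in mutants and 70.5 ± 1.61 FPKM in controls (SD, n = 3 each), with an interval of -0.05 to 0.11, the narrowest of the 37. Syt1 averaged 33.5 ± 5.10 FPKM in mutants and 33.9 ± 2.49 FPKM in controls (SD, n = 3 each). Syt5, from the wider list, reached 144 FPKM over the 6 libraries and had a log2 fold change of -0.02.

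The Rab3 GTPases sit on vesicles and bind the RIM proteins of the active zone. Rab3a had 139, 149.5 and 125 FPKM in mutants, against 135, 145 and 143 FPKM in controls. Here too the controls lay inside the mutant range. Rab3c followed with 61.0 ± 2.87 FPKM in mutants and 63.8 ± 2.82 FPKM in controls, and Rab3b with 29.1 ± 1.10 and 27.2 ± 2.24 FPKM (SD, n = 3 each). The 6 values of each gene did not overlap those of its neighbour in this order, so the order held in every library.

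The median width of the intervals was 0.778 for the 5 priming factors, against 0.553 over all genes tested and 0.273 for the active zone scaffolds. Among the priming factors, the wide intervals were those of the Unc13 genes. Unc13a, which encodes Munc13-1, averaged 63.5 ± 11.4 FPKM in mutants and 69.8 ± 9.55 FPKM in controls, Unc13b 27.9 ± 2.72 and 29.9 ± 6.07 FPKM, and Unc13c 1.04 ± 0.105 and 0.809 ± 0.178 FPKM (SD, n = 3 each). The 95% intervals were -0.53 to 0.25 for Unc13a, -0.48 to 0.32 for Unc13b and -0.15 to 0.64 for Unc13c. Unc13c, a form known mainly from cerebellum, rested on 99 to 209 fragments a library. The RIM genes Rims1 and Rims2 had log2 fold changes of -0.003 ± 0.09 and 0.01 ± 0.09 (SE). Their intervals, -0.23 to 0.22 and -0.20 to 0.22, were narrower than the median over all genes. The scaffolds Bsn (bassoon), Pclo (piccolo), Erc2 (an ELKS family protein) and Ppfia2 (liprin-alpha-2) had estimates between -0.03 and 0.03. For Erc2 and Ppfia2 the 95% intervals, -0.11 to 0.12 in both cases, were among the narrowest of the 37.

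Dnm1, which encodes the neuronal dynamin that cuts endocytic vesicles from the membrane, averaged 108 ± 8.39 FPKM in mutants and 102 ± 8.69 FPKM in controls (SD, n = 3 each). Its interval was -0.12 to 0.30.

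**Figure D3:**
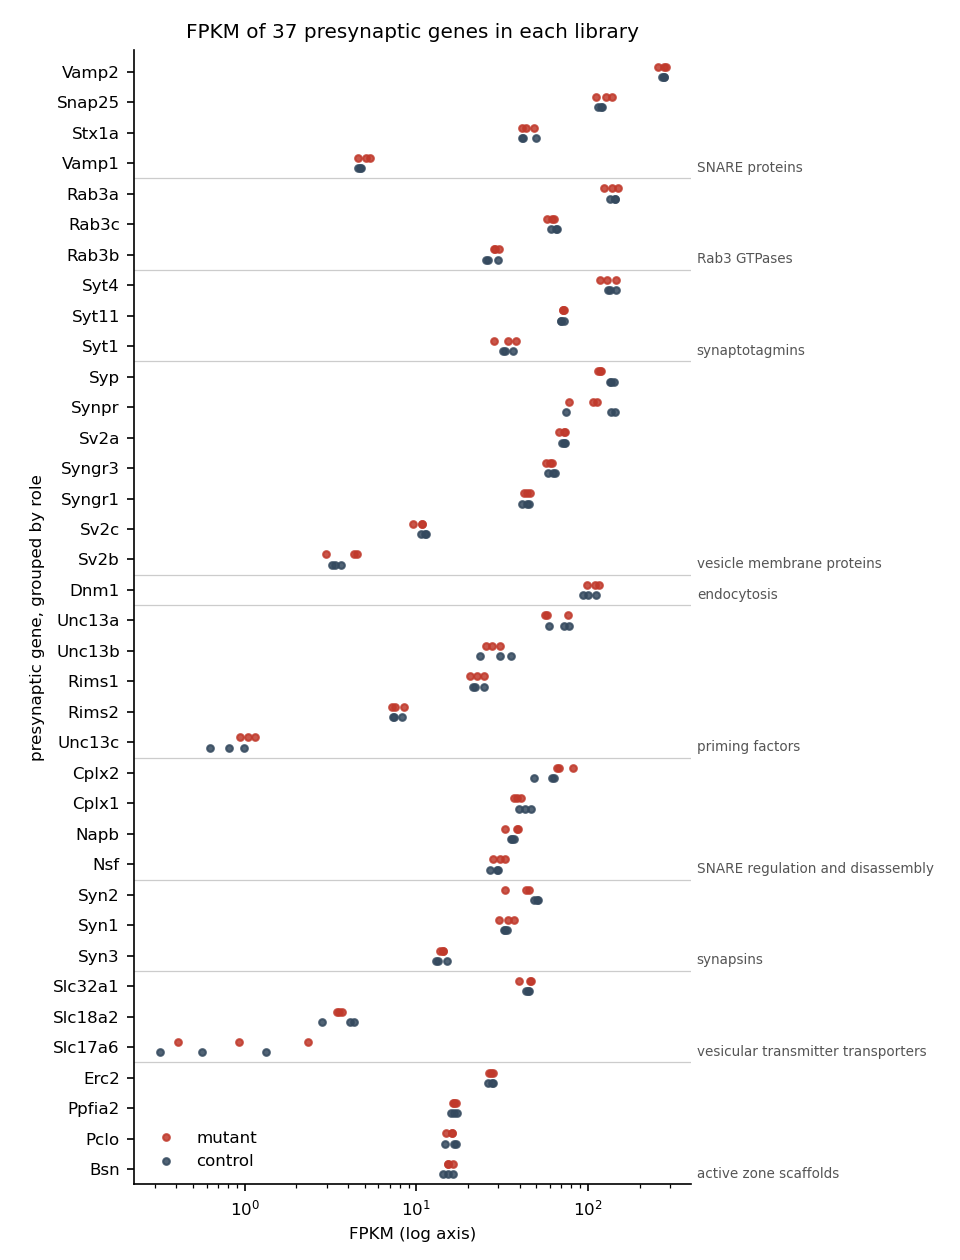
FPKM (log axis) of the 37 genes by library, grouped by role, with mutants in red above controls in dark blue. Vamp2, Rab3a and Syt4 are highest on average, Unc13c and Slc17a6 lowest, and mutant and control points lie over each other for all but Syp, Syn2 and Cplx2.

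The vesicular transporters show which transmitters the measured cells can load. Slc32a1, which encodes the GABA and glycine transporter VGAT, had 45.7, 46.6 and 39.8 FPKM in mutants, against 43.6, 44.6 and 45.2 FPKM in controls. Mutant replicate 3 was the lowest of the 6 libraries and the groups overlapped. The interval was -0.18 to 0.15. Gad1 and Gad2, which encode the enzymes that make GABA, had intervals of -0.11 to 0.33 and -0.08 to 0.23.

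Slc17a6, which encodes the glutamate transporter VGLUT2, was near the floor of the measurement. It had 0.930, 0.407 and 2.34 FPKM in mutants, against 1.33, 0.564 and 0.319 FPKM in controls, from 18 to 131 fragments a library. Mutant replicate 3 was highest and control replicate 3 lowest. Slc32a1 exceeded Slc17a6 by 49.2, 115 and 17.01 times in mutants and by 32.7, 79.1 and 142 times in controls. Slc17a7, which encodes VGLUT1 of cortical neurons, had 1.01, 0.295 and 1.19 FPKM in mutants, against 0.181, 0.311 and 0.197 FPKM in controls. It averaged 0.531 FPKM over the 6 libraries and thus entered the comparison only through the mutant values, so no fold change is given for it. Mutant replicate 2 lay inside the range of the controls. The 8 markers of cortical glutamatergic neurons summed to 36.3, 9.2 and 61.2 FPKM in mutants, against 22.9, 24.8 and 8.6 FPKM in controls, with none at 0 in all libraries. Mutant replicates 1 and 3 were thus highest for the cortical list and for Slc17a7. The part of cortical tissue in the values of the glutamate transporters was not tested.

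Sv2b, the SV2 form known mainly from glutamatergic neurons, had 4.53, 2.97 and 4.35 FPKM in mutants, against 3.62, 3.24 and 3.38 FPKM in controls. Its high libraries were also mutant replicates 1 and 3, and its lowest was mutant replicate 2. The controls did not follow the cortical list: replicate 2 had their lowest Sv2b and their highest cortical sum, 24.8 FPKM. The interval, -0.24 to 0.57, stayed within 1.5-fold, and the part of cortical tissue was not tested here either. Slc18a2, which encodes the monoamine transporter VMAT2, averaged 3.56 ± 0.105 FPKM in mutants and 3.76 ± 0.811 FPKM in controls (SD, n = 3 each). Of 6 midbrain dopamine neuron markers, Pitx3 was at 0 in all libraries, and Slc6a3 and En1 reached at most 0.14 and 0.08 FPKM. The sum of the 6, which rested on Th, Ddc and Nr4a2, was 6.93 to 11.7 FPKM in mutants and 6.25 to 6.85 FPKM in controls. These ranges come close but do not overlap, and the sum was not tested. Its highest value, in mutant replicate 1, included 3.37 FPKM of Nr4a2.

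**Figure D4:**
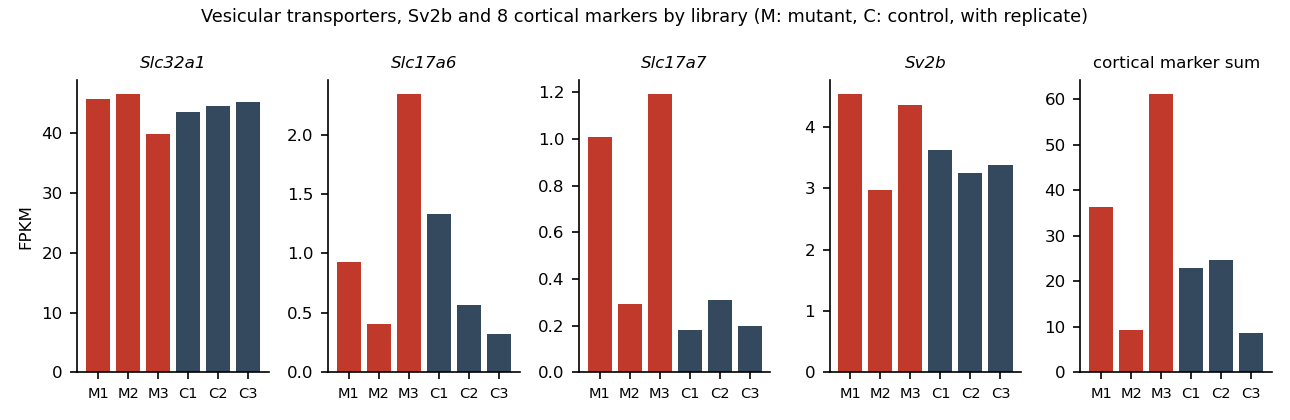
FPKM by library for the vesicular transporter genes Slc32a1, Slc17a6 and Slc17a7, for Sv2b and for the sum of 8 cortical markers, with each panel on its own axis from 0; M stands for mutant and C for control, with the replicate number. Slc32a1 is level across libraries, while Slc17a7, Sv2b and the cortical sum are highest in mutant replicates 1 and 3.

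Cell markers that could move with Syp and Syn2 were read beside them. The 8 pan-neuronal genes summed to 1629 to 1650 FPKM in mutants and 1639 to 1836 FPKM in controls. None passed over all genes, and 4 of the 8 were lower at an unadjusted p under 0.05, against 2.99% of all genes: Map2, Nefl, Nefm and Nrgn. Nrgn, which encodes the calmodulin-binding protein neurogranin of projection neurons, had 17.7, 11.9 and 12.9 FPKM in mutants, against 31.2, 25.8 and 28.2 FPKM in controls (adjusted p = 0.364, limma). On scaled counts Map2 had a log2 fold change of -0.06, against -0.12 on FPKM, and was no longer among them. Of the other 4, Rbfox3, Elavl4 and Stmn2 had estimates above 0 (0.16, 0.09 and 0.02) and Tubb3 one below 0 (-0.09). Astrocyte and radial glia genes summed to 585 to 719 FPKM in mutants and 529 to 661 FPKM in controls. The part of cell composition in the values of Syp and Syn2 was not tested.

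Over the 37 genes together, the libraries lay close to each other. The median over the 37 genes of a library's log2 distance from the control mean was 0.03, 0.02 and -0.05 in mutant replicates 1 to 3, and 0.01, -0.02 and 0.02 in control replicates 1 to 3. Mutant replicate 3 was the lowest of the 6 libraries for 12 of the 37 genes, and mutant replicate 2 was the highest for 15. The libraries that gave the most low and the most high values were thus both mutants.

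Of a wider list of 98 presynaptic genes, 97 were found in the table and 90 entered the comparison, and 0 passed an adjusted p of 0.05 (limma). At an unadjusted p under 0.05 there were 8, or 8.89%, of which 3 were higher and 5 lower, against 5.65% of all genes (2.65% higher and 2.99% lower). Groups did not overlap for 11 of the 90, or 12.2%, against 11.4% of all genes, and the median log2 fold change was 0.00. The smallest p belonged to Syt6, a synaptotagmin gene, with 60.4, 56.3 and 57.8 FPKM in mutants, against 69.4, 69.9 and 79.6 FPKM in controls. Its log2 fold change was -0.32 ± 0.07 (SE; adjusted p = 0.566, limma). Rab3gap1, which encodes the catalytic subunit of the complex that turns Rab3 off, averaged 21.6 ± 1.09 FPKM in mutants and 17.3 ± 1.25 FPKM in controls (adjusted p = 0.674, limma; SD, n = 3 each). Syt13 averaged 3.88 ± 0.277 FPKM in mutants and 2.74 ± 0.268 FPKM in controls. Sh3gl2, the gene of endophilin A1, had a log2 fold change of 0.26 ± 0.10 (SE). The scaffold genes Cask, Lin7a and Erc1 and the clathrin adaptor gene Ap2b1 had estimates from -0.17 to -0.09. On scaled counts Cask had 0.001 and Ap2b1 -0.07, neither at an unadjusted p under 0.05. The 7 genes under the filter were Cplx3, Cplx4, Syngr4, Rab27a, Unc13d, Slc18a1 and Sncg, each averaging under 0.5 FPKM.

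**Figure D5:**
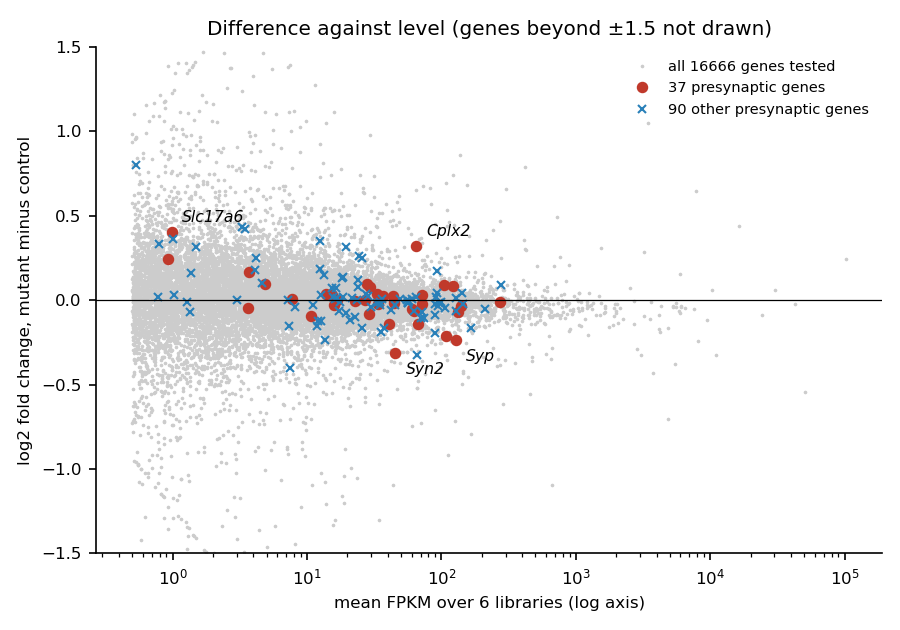
Log2 fold change, mutant minus control, against the mean FPKM over 6 libraries (log axis) for all 16666 genes tested (grey), the 37 presynaptic genes (red) and 90 other presynaptic genes (blue crosses). Genes beyond 1.5 in either direction (417) are not drawn, and 28 of the 37 lie within 0.1 of 0, with Syn2, Syp and Cplx2 further out among genes of their level and Slc17a6 among genes of low level.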

How the data were processed

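Total RNA from 6 libraries (3 mutant, 3 control) was analysed from 1 deposited table. TopHat, Cufflinks 2.1.1 and GRCm38.p4 are named per the submitters' processing notes; the sources used here give neither annotation nor strand use nor handling of multiple alignments. The authors deposited FPKM values and, per the file headers, count columns, which hold a signal rather than raw counts: 98.7 to 98.9% of low values lay within 0.1 of a whole multiple of 1 step per library, beside vanishing estimates. Symbols and positions came from GENCODE M21 (GRCm38), which matched 46483 of 47062 identifiers, and promoters from RefSeq (GRCm38.p6).

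Genes averaging 0.5 FPKM or more were fitted with limma 3.58.1 (R 4.3.3), with a variance trend, on log2(FPKM + 0.5), which understates folds of low genes; p-values were two-sided and adjusted over all genes. The steps were tested on simulated data. Library pairs correlated at 0.824 to 0.859 on the log2 scale. Fragment totals limit precision, and intervals cover the spread between libraries. Values per library are given for genes at an unadjusted p under 0.05, those with groups that do not overlap, the 3 highest and some chosen after values were seen; of the wider list, the 8 smallest p are named. The members and lists were chosen with earlier results of these data known.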

Additional observations from a re-analysis of the deposited data

How the results depend on the processing

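Across 16 alternatives (pseudocounts of 0.1 and 1, no filter, a filter at an average of 1 FPKM, quantile and median-ratio scaling, a replicate block, robust limma, scaled counts, a mean scaled count of at least 10, and 6 fits with 1 library left out), 0 of the 37 genes and 0 of the wider list passed the threshold, and the lowest adjusted p of a member was 0.264 (limma, Syp at a mean scaled count of at least 10). Between 1 and 3 members were at an unadjusted p under 0.05. Genes with groups that do not overlap numbered 3 or 4 in the other fits and 3 to 11 with 1 library left out, where fewer values must line up. The median over the 37 genes ran from -0.0227 (without mutant replicate 1) to 0.0299 (without mutant replicate 3). Sp9 passed with a pseudocount of 0.1 (-1.11), a filter at 1 FPKM (-1.08), robust limma (-1.08), the scaled count filter (-1.08) and scaled counts (-1.32), and ran from -1.16 (without mutant replicate 3, past the threshold) to -1.02 with 1 library left out. Syp, Syn2 and Cplx2 kept their direction throughout; signs turned for Vamp2 (-0.0443 to 0.0299 with 1 library left out) and Rab3a (-0.0990 to 0.0321) without mutant replicate 3 and for Syt4 (-0.146 to 0.00651) without mutant replicate 2, and in some fit for 17 of the other 31 genes, none past the threshold.

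The labels do not say whether same-numbered mutant and control libraries are paired. Correlations of deviations were 0.002, 0.04 and 0.04 for same-numbered libraries and -0.07 to 0.03 for the others. Values this close to 0 cannot settle whether the libraries were paired. With the replicate block, no member passed, 3 genes had groups that do not overlap, the median was 0.001, and Sp9 had -1.08 with an adjusted p of 0.579 (limma). Count models were not run, since the deposited columns also hold fractional estimates. Slc17a6 and Unc13c rested on few fragments.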
